A study of Mus musculus with 23 samples.

Results

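Alternative 3' splice sites make up 43 of the 252 distinct events in the authors' splicing table for mouse skeletal muscle, and 38 of these, in 38 of the table's 221 genes, are described here. The members were all rows that the authors typed as alternative 3' splice sites in any of the 3 comparisons of the table, apart from 5 gene symbols that the rule sets aside. The 5 symbols account for the other 5 distinct events, in 7 rows, which enter below only as counts. RNA was sequenced from skeletal muscle of 23 male mice. NZO/HIBomDife mice become obese and diabetic through many genes of small effect, and were fed ad libitum (n = 5), kept on intermittent fasting (n = 5) or kept on caloric restriction (n = 3). C57BL/6J mice, a common inbred strain, were sedentary (n = 5) or exercised (n = 5). The labels do not give age, the muscle taken or the fasting and exercise schedule. Both dietary comparisons use the same ad libitum mice.

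Nearly every intron ends in an AG at its 3' splice site, a dinucleotide read together with an upstream branch point and pyrimidine tract by SF1, U2AF and the U2 particle. Where a second AG lies close by, the spliceosome can cut at either, and the stretch between both cuts is then kept in or left out of the mature RNA. When the cuts lie a codon apart, the site is called a tandem acceptor. In coding sequence it adds or drops an amino acid, or exchanges residues at the junction, without shifting the reading frame. A stretch whose length is no multiple of a codon shifts the frame where it is coding.

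For each group the authors give 1 inclusion level per event, between 0 (the stretch is never kept) and 1 (always kept). A high level was read here as use of the upstream of both cuts, which keeps the listed stretch in the RNA. No level per mouse was used, so no level below carries an error, none of the differences has a replicate check or a test over mice, and the read depth behind a level is unknown. The smallest absolute difference between levels was 0.2004 and the smallest probability in the authors' deposited table was 0.9, so the table holds called events only. No genome sequence was used here, so the letters at the splice sites are not shown, and whether a stretch is coding was not determined. Positions are mm10 coordinates, taken to count from 1 and to include both end bases. In bulk muscle, fewer cells of a type and less RNA per cell cannot be told apart, and either can move an inclusion level where cell types splice a gene differently. The table holds no expression values, so the tissue could not be checked against marker levels. Of 7 muscle fibre markers, Neb had a listed event of any type, and of 16 markers of endothelial, immune, fat, fibroblast, satellite and Schwann cells 0 did. A listed event says nothing of a marker's expression, so these counts do not show which cells the levels come from.

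Of the 38 stretches, 20 were exactly 3 nucleotides long, and these are called tandem acceptors below by their length alone. They make up 52.6% of the distinct events, with an exact Clopper-Pearson 95% interval of 35.8% to 69.0% that covers counting of listed events only. The same length was found in 1 of 32 alternative 5' splice site events, which is 3.13% (exact interval 0.0791% to 16.2%). It was found in 0 of 126 skipped exons and 0 of 51 retained introns (upper exact limits 2.89% and 6.98%). Their shortest members had 24 and 45 nucleotides, so both types are no like comparison at this length. The other 18 stretches at 3' splice sites ran from 5 to 919 nucleotides, with a median of 61.5. The shortest of them, of 5 nucleotides, were in Mysm1 and Mlst8, and the next shortest had 19. Alternative 5' splice sites had a median length of 20.5 nucleotides, skipped exons 94 and retained introns 290.

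**Figure D1:**
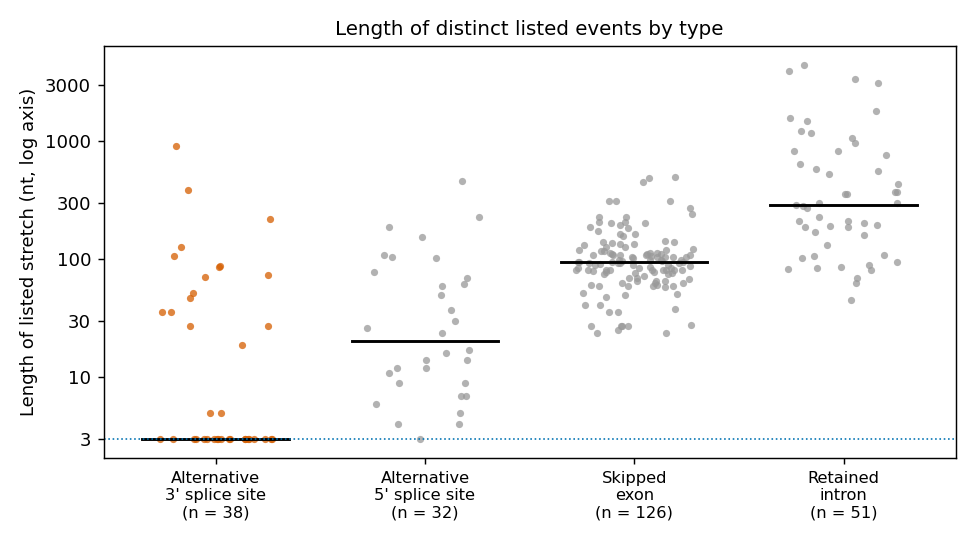
Length in nucleotides (log axis) of each distinct listed event, by type; each point is 1 event, the black line is the median and the dotted line marks 3 nucleotides. Of the 38 alternative 3' splice site stretches 20 lie on the dotted line, against 1 of 32 alternative 5' splice sites.

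A length divisible by 3 was found for 26 of the 38 stretches (68.4%), and 20 of these 26 are the 3-nucleotide stretches themselves. Among the 18 longer stretches, 6 were divisible by 3, which is 33.3%. They lie in Il17rc and Il18bp (27 nucleotides each), Elf2 and Fam129c (36 each), N4bp2l1 (219) and Tfpi (387). The other 12 would shift the frame if they are coding. They include the stretch of Rab10os, which is annotated as a long noncoding RNA. For comparison, 43.8% of the alternative 5' splice sites, 58.7% of the skipped exons and 31.4% of the retained introns had a length divisible by 3.

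Caloric restriction was listed with 16 of these events, 9 of 3 nucleotides and 7 longer. The level was higher under caloric restriction than ad libitum in 11 and lower in 5, beside 52.6% of all 114 listed events of the comparison that were higher. Of the 9 tandem acceptors 7 had the higher level under caloric restriction, or 7 of 12 with the genes set aside counted in. Plekhg2, a protein with a pleckstrin homology domain (chromosome 7, 28370495 to 28370497), had a level of 0.468 in ad libitum muscle and 0.854 in calorie-restricted muscle. Ssh3, a slingshot phosphatase of the family that activates cofilin (chromosome 19, 4268583 to 4268585), went from 0.643 to 0.897 in the same order. Eml3, a microtubule-binding protein (chromosome 19, 8931044 to 8931046), had 0.209 and 0.746. Of these genes Eml3 moved furthest, and by its levels the main form changed from the short to the long acceptor product. Rasgrf2, an exchange factor for Ras (chromosome 13, 91972286 to 91972288), stayed mostly without the stretch at 0.122 and 0.391.

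The widest gap among the members was in Acsl4, which charges long-chain fatty acids, arachidonate above all, with coenzyme A. Its 3 nucleotides (chromosome X, 142351616 to 142351618) were kept at a level of 0.290 in ad libitum and 0.921 in calorie-restricted muscle. Nrip1, a corepressor of nuclear receptors that restrains oxidative metabolism in muscle and fat (chromosome 16, 76352547 to 76352549), had 0.556 and 0.906. Both genes thus had a level above 0.9 under caloric restriction, from unequal starting levels. Tmem176b, a membrane protein found in dendritic cells and other tissues (chromosome 6, 48838363 to 48838365), ended near the same level, with 0.552 and 0.883.

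The other 2 of the 9 tandem acceptors under caloric restriction had a lower level, or 5 of 12 with the genes set aside counted in. Bend7, a BEN-domain protein (chromosome 2, 4796530 to 4796532), had 0.725 in ad libitum and 0.279 in calorie-restricted muscle. Mms19, which hands iron-sulfur clusters to DNA repair and replication enzymes (chromosome 19, 41954015 to 41954017), had 0.532 and 0.304. The Mms19 difference was the smallest of the 9, and it is 1 of 2 members in confidence class 2 of the authors' deposited table, a class whose meaning is not stated there.

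The 7 longer stretches under caloric restriction included histone-modifying enzymes and immune receptors. Kdm5d, a Y-linked demethylase of histone H3 (chromosome Y, 927603 to 927709, 107 nucleotides), had a level of 0.635 in ad libitum and 0.122 in calorie-restricted muscle. Mysm1, a histone H2A deubiquitinase needed for blood cell formation (chromosome 4, 94969054 to 94969058), had 0.522 and 0.931 for its 5 nucleotides. These enzymes thus differed in direction. Il17rc, a subunit of the interleukin-17 receptor (chromosome 6, 113476399 to 113476425), had 0.869 and 0.514. Lilr4b, a leukocyte immunoglobulin-like receptor (chromosome 10, 51484446 to 51484516), had 0.808 and 0.319. Cd209f, a C-type lectin of the DC-SIGN family (chromosome 8, 4103735 to 4103822), had 0.0672 and 0.333. Lilr4b lies beside its close relative Lilrb4a and Cd209f belongs to a gene family, so reads of related copies could be split between them and both levels are uncertain. Tmem106c, a transmembrane protein (chromosome 15, 97964788 to 97964839), had 0.115 and 0.445.

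Cenpt, a kinetochore protein that links centromeric chromatin to the spindle, was listed with neighbouring events. Its 74-nucleotide 3' splice site stretch (chromosome 8, 105849714 to 105849787, minus strand) had levels of 0.147 in ad libitum and 0.555 in calorie-restricted muscle. The retained intron of 45 nucleotides (105849788 to 105849832) ends where the stretch begins, and its levels were 0.0993 and 0.550. The levels of both stretches lay 0.0478 apart ad libitum and 0.0052 apart under caloric restriction, and the pair measures 119 nucleotides. The listings of adjoining sequence are not independent of each other.

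**Figure D2:**
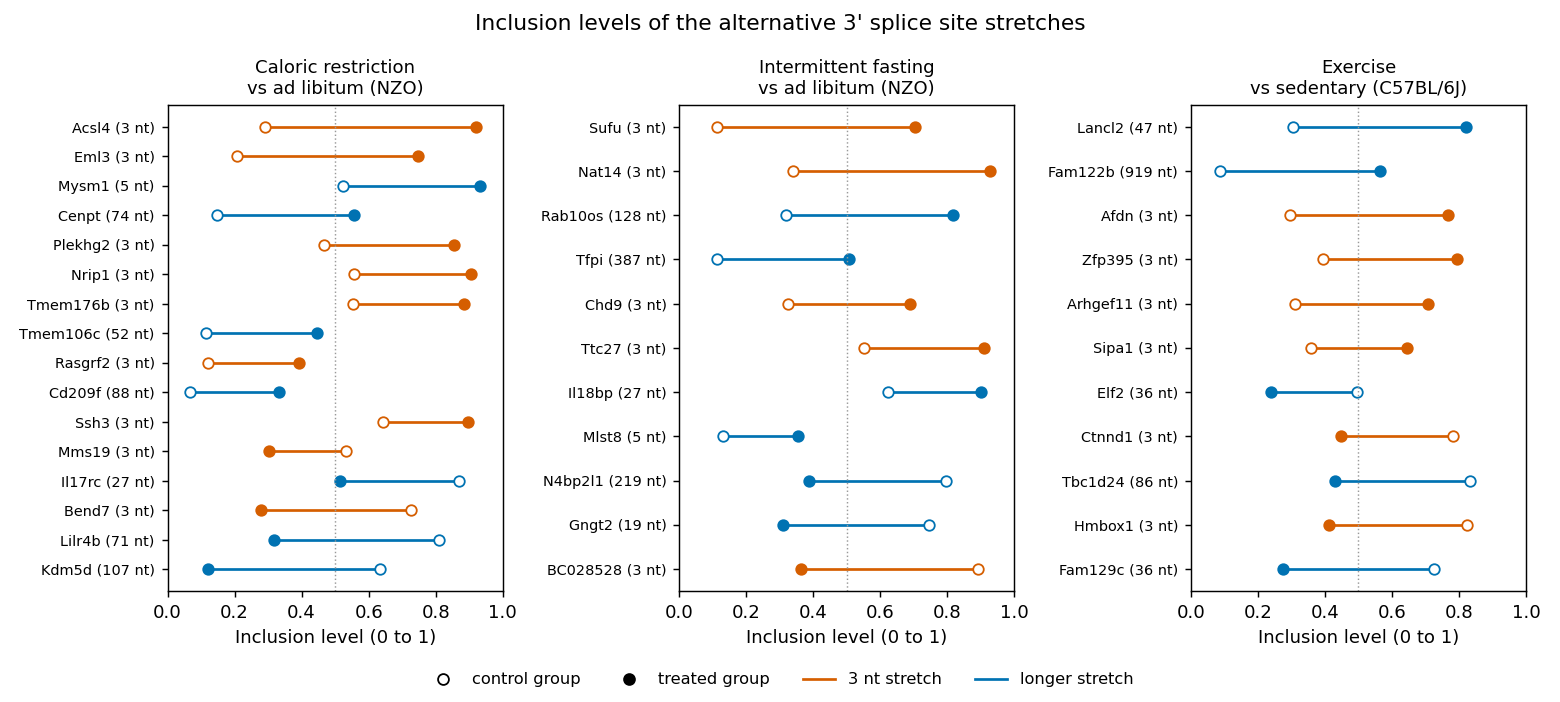
Inclusion level (0 to 1) of each of the 38 stretches in the control group (open circle) and the treated group (filled circle), by comparison; orange marks 3-nucleotide stretches, blue longer ones, and the dotted line a level of 0.5. Circles are the authors' 1 value per group, with no error; Acsl4 has the longest line, from 0.290 to 0.921.

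Intermittent fasting was listed with 11 events, 5 of 3 nucleotides and 6 longer. The level was higher under fasting in 8 and lower in 3, beside 39.2% of all 79 listed events of the comparison that were higher. Sufu, the inhibitor that holds Gli transcription factors in check in Hedgehog signalling (chromosome 19, 46453159 to 46453161), had the largest gap, with 0.112 ad libitum and 0.704 under fasting. It was the only one of 16 Hedgehog pathway genes with a listed event of any type. The list of 16 was drawn up with earlier results of these data known, so this count is no sign of the pathway. Nat14, a putative N-acetyltransferase (chromosome 7, 4923208 to 4923210), had 0.340 and 0.927. Chd9, a chromodomain chromatin remodeller (chromosome 8, 91034905 to 91034907), had 0.326 and 0.687. In these 3 genes the stretch was kept in the minority of transcripts ad libitum and in the majority under fasting. Ttc27, a tetratricopeptide repeat protein (chromosome 17, 74863334 to 74863336), had 0.551 and 0.910, and is the other member in confidence class 2 of the authors' deposited table. BC028528, an uncharacterised protein-coding gene (chromosome 3, 95885069 to 95885071), was the 1 of the 5 tandem acceptors with a lower level under fasting, 0.891 against 0.365. With the genes set aside counted in, 3 of 7 were lower. The BC028528 stretch lies within the span of the long noncoding RNA gene C920021L13Rik, and whether reads were counted by strand is not given in the sources used here.

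Among the 6 longer stretches under fasting, Mlst8 encodes a subunit shared by both mTOR complexes. Its 5 nucleotides (chromosome 17, 24478479 to 24478483) had levels of 0.131 ad libitum and 0.354 under fasting, the smallest difference of the 38 members. Tfpi, the inhibitor that shuts off the tissue factor pathway of blood clotting (chromosome 2, 84442926 to 84443312), had 0.112 and 0.506 for 387 nucleotides. Il18bp, the soluble antagonist of interleukin-18 (chromosome 7, 102017638 to 102017664), had 0.624 and 0.901. Each of these 3 had the higher level under fasting. Gngt2, a G protein gamma subunit first known from cone photoreceptors (chromosome 11, 95845032 to 95845050), had 0.746 and 0.310 for 19 nucleotides.

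The noncoding member, Rab10os (chromosome 12, 3249739 to 3249866), had 0.318 ad libitum and 0.817 under fasting. This long noncoding RNA lies on the plus strand and its stretch overlaps Rab10 on the minus strand, so reads of the pair cannot be told apart unless strand was used. N4bp2l1 was the other member gene with a second listed event. Its 219-nucleotide stretch (chromosome 5, 150593219 to 150593437, minus strand) had 0.797 and 0.388, and a skipped exon of 79 nucleotides that directly follows it (150593140 to 150593218) had 0.774 and 0.409. The levels of these neighbours lay 0.0229 apart ad libitum and 0.0214 apart under fasting. As in Cenpt, the listings of adjoining sequence are not independent of each other. Whether the lower level of the stretch reflects the choice of acceptor or skipping of both pieces together was not tested. The stretch taken alone has a length divisible by 3, while both together measure 298 nucleotides, which is not.

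Exercise was listed with 11 events, 6 of 3 nucleotides and 5 longer. The level was higher in exercised muscle in 6 and lower in 5, beside 48.6% of all 72 listed events of the comparison that were higher. Tandem acceptors here included proteins of cell junctions. Afdn, or afadin, ties nectins to actin, and its stretch (chromosome 17, 13807277 to 13807279) had levels of 0.297 in sedentary and 0.767 in exercised muscle. Ctnnd1, p120 catenin, stabilises cadherins at the membrane, and its stretch (chromosome 2, 84602901 to 84602903) went the other way, with 0.783 and 0.447. The junction proteins thus had opposite directions. Arhgef11, a PDZ-domain protein (chromosome 3, 87717421 to 87717423), had 0.312 and 0.706. Sipa1, which switches off Rap GTPases (chromosome 19, 5661624 to 5661626), had 0.359 and 0.646. Both of these genes had the higher level after exercise. Zfp395, a zinc finger protein (chromosome 14, 65385396 to 65385398), had 0.395 and 0.794. Hmbox1, a homeobox protein that binds telomere repeats (chromosome 14, 64825693 to 64825695), had 0.825 and 0.411. All 6 tandem acceptors had levels on opposite sides of 0.5 in sedentary and exercised muscle, beside 50% of all 72 listed events of the comparison.

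The longer stretches of the exercise comparison included the longest of all members, 919 nucleotides in Fam122b, a relative of an inhibitor of protein phosphatase 2A (chromosome X, 53245372 to 53246290). It was kept at 0.0880 in sedentary and 0.563 in exercised muscle. Lancl2, a LanC-like protein that binds abscisic acid (chromosome 6, 57739025 to 57739071), had 0.305 and 0.820. Its 47-nucleotide stretch ends 378 nucleotides before the 3' end of the annotated gene. The other 3 had lower levels after exercise. Elf2, an ETS-family transcription factor (chromosome 3, 51265007 to 51265042), had 0.495 and 0.239. Fam129c, listed as Niban3 in RefSeq and expressed in B cells (chromosome 8, 71607505 to 71607540), had 0.726 and 0.274. Tbc1d24, a TBC-domain protein of vesicle trafficking (chromosome 17, 24186202 to 24186287), had 0.833 and 0.430.

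Over all 3 comparisons the 3-nucleotide stretches had a higher level in the treated group in 15 of 20 events, and the longer ones in 10 of 18. The first count depends on the genes set aside: with them the tandem acceptors were higher in 15 of 25 rows, since 5 of the 7 rows set aside had a lower level and all 5 were 3 nucleotides long. With them the higher share was also 61.9% of 21 rows under caloric restriction and 61.5% of 13 under fasting, in place of 68.8% and 72.7%. Other event types were higher in 45% of 220 rows. The start level also bounds the direction. A control level under 0.2 leaves room only for a higher listed level and one over 0.8 only for a lower one, which held for 8 and 5 of the 38 members. Of the 25 members free to go either way, 17 were higher and 8 lower, against 65 and 75 of the 140 free events of other types. No test of these shares was made, because listed events are not replicates of a treatment.

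**Figure D3:**
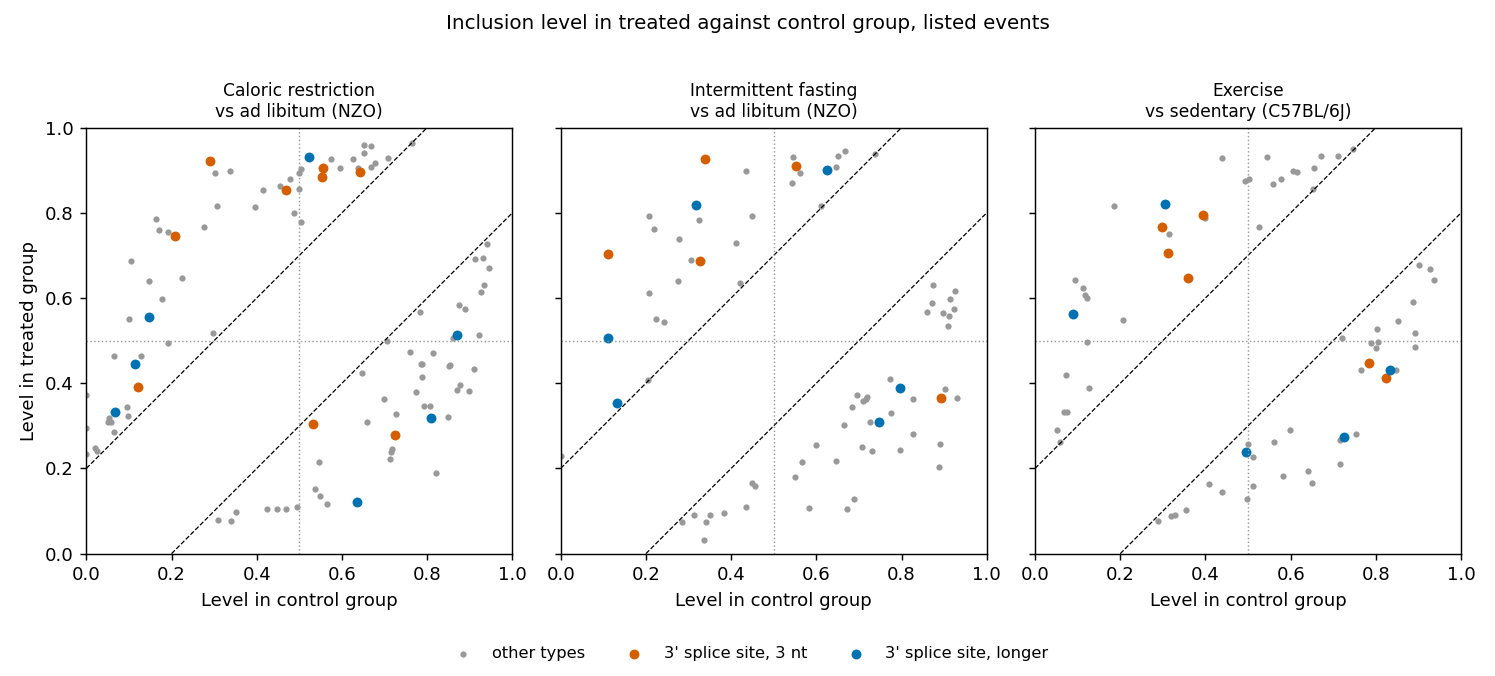
Inclusion level in the treated group (y axis) against the control group (x axis), both 0 to 1, for the listed events of each comparison other than the 7 rows set aside; orange and blue points are 3-nucleotide and longer 3' splice site stretches, grey points other event types. Dashed lines mark a difference of 0.2, inside which nothing is listed, and dotted lines a level of 0.5. After exercise 10 of the 11 coloured points changed side of 0.5, beside 50% of all listed events of the comparison.

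The median absolute difference was 0.391 for the 20 tandem acceptors (range 0.228 to 0.630) and 0.409 for the 18 longer stretches (range 0.223 to 0.515). With the genes set aside counted in, it was 0.414 over 25 rows of 3 nucleotides (largest 0.653) and 0.406 over 20 longer ones. The order of both medians thus depends on the rule. Split by comparison, the members had a median of 0.371 with caloric restriction, 0.409 with fasting and 0.403 with exercise, beside 0.352, 0.355 and 0.315 for all listed events. In the same order, alternative 5' splice sites had 0.385, 0.410 and 0.313, and retained introns 0.412, 0.352 and 0.363. Skipped exons had 0.313, 0.340 and 0.295. A median above that of all listed events was thus not particular to 3' splice sites. The ranges of short and longer stretches overlap over most of their width. In the exercise comparison 10 of 11 members had levels on opposite sides of 0.5, beside 50% of all its listed events. Among its other types this share was 62.5% for alternative 5' splice sites, 55.6% for retained introns and 31.4% for skipped exons. Under fasting the members had 8 of 11 beside 60.8% of all listed events, with 71.4%, 60% and 51.4% for these types in turn. Under caloric restriction it was 8 of 16 beside 52.6%, with 63.6%, 59.1% and 45%. These counts depend on the genes set aside, since all 7 of their rows had levels on opposite sides of 0.5. With them counted in, it was 13 of 21 under caloric restriction and 10 of 13 under fasting. The levels carry no error and some lie near 0.5, so a change of main form is not certain.

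**Figure D4:**
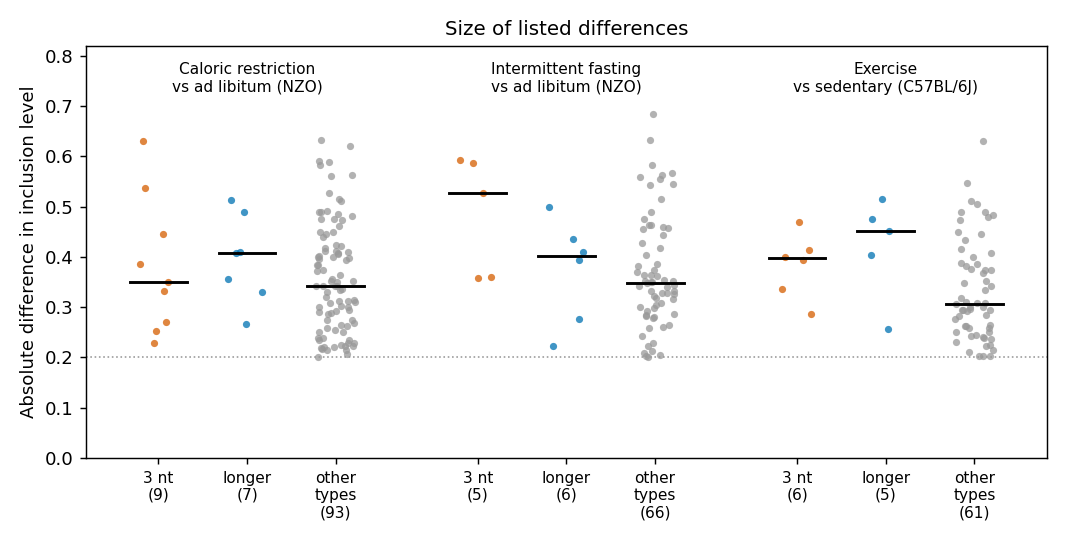
Absolute difference in inclusion level between treated and control group for each listed event other than the 7 rows set aside, by comparison and split into 3-nucleotide stretches, longer 3' splice site stretches and other event types, with the number of events in brackets. Black lines are medians and the dotted line marks 0.2; the tandem acceptors under fasting have the highest median, 0.527, from 5 events.

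The evidence per event in the authors' deposited table was uneven. A probability of at least 0.95 was given there to 14 of the 38 members, 6 with caloric restriction, 6 with fasting and 2 with exercise. Over all listed events it was given to 99 of 265 rows, so the members together were close to the table as a whole. By comparison these were 48 of 114, 28 of 79 and 23 of 72, in the same order. The 14 members include Acsl4, the highest of the members at 0.996 in the authors' deposited table, but 0 of the 6 tandem acceptors listed after exercise. The lowest, 0.908 in the authors' deposited table, was shared by Ctnnd1, Fam129c and Tbc1d24.

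None of the 38 events was listed in more than 1 comparison, and none of the 38 genes had an event of any type in another comparison. This count follows from the genes set aside, since 2 of their 5 distinct events were listed under both diets, which share the ad libitum mice. Over the whole table, 12 of the 252 distinct events were listed more than once, so repeats were few throughout. The same count by gene was not made for the whole table. All 38 stretches lie inside the span of their gene in RefSeq, and 37 of the genes are protein-coding. Along the gene, 9 stretches fell in the first 25% of its span and 14 in the last 25%. Within 1000 nucleotides of the annotated 3' end lay 6 stretches, of Ttc27, Lancl2, Rab10os, Fam129c, Gngt2 and Cd209f, of which Ttc27 was closest at 234 nucleotides. Near the 5' end lay 3, of Il18bp (568 nucleotides), Mlst8 (631) and Ssh3 (648). Positions along the gene were worked out for the members only. These counts therefore have no share of all listed events beside them and show no tendency towards either end. The median number of RefSeq transcripts per gene was 8, and Rasgrf2, Lancl2 and Rab10os had 1 each, so RefSeq lists no other transcript for these.

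Of 34 genes for branch point and 3' splice site recognition and for the second catalytic step, among them Sf1, U2af1, U2af2, Sf3b1, Slu7 and Prpf18, 0 had a listed event of any type. Of 35 other regulators of splice site choice, 2 had one, in 1 case an alternative 3' splice site that the rule sets aside. These lists do not cover all splicing genes, and the counts depend on which genes were put on them. Prpf4b, Snrnp48 and Prpf39, on neither list, each had a listed retained intron. Among 22 sarcomere genes 1 had a listed event, Neb, and 0 an alternative 3' splice site. Of 28 genes of fatty acid and lipid metabolism, Acsl4 alone had a listed event. The whole table names 221 genes, and the number of genes examined is not known here, so these counts cannot be set against a share of all genes and do not show that any list was spared or favoured. The lipid and Hedgehog lists were drawn up with earlier results of these data known, so Acsl4 and Sufu are no independent sign of either pathway.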

How the data were processed

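RNA sequencing of skeletal muscle from 23 mice was analysed from 1 table of called splicing events. Per the labels' design text, splicing was analysed with Whippet and rMATS. No source used here gives the tool behind each value, the depth, the read layout or the way mice were combined. Positions are mm10, per the submitters' processing notes. Inclusion levels were deposited as a fraction from 0 to 1, with 1 value per group, and the deposited difference is control minus treated (largest gap to the levels 1e-05). Differences here are treated minus control, computed from the levels.

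Groups came from the intervention label. Length is end minus start plus 1: all 15 distinct Neb skipped exons are then divisible by 3, and 0 are with end minus start. Events with the same position and type were counted as 1 distinct event. Names were matched to RefSeq genes of assembly GRCm38.p6 (37 by symbol, 1 by an older name). Python 3.11.15, pandas 2.3.3, scipy 1.17.1 and matplotlib 3.10.9 were used, and the table reader was tested on simulated data. All members were named, in full. Lists, members and rules were chosen with earlier results of these data known. Alternatives were stricter limits, confidence class 1, 1 event per gene, the 5 genes kept, and another length count.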

Additional observations from a re-analysis of the deposited data

How the results depend on the processing

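Leaving out single mice was not run, since the table gives 1 level per group. No paired analysis was possible because the labels pair no mice and levels are per group. Of the 10 summaries tried, all stayed within their 95% counting interval at a minimum difference of 0.3, with confidence class 1 alone, with the 5 genes kept in, and, in an alternative chosen after seeing the data, without Lilr4b, Cd209f and Rab10os. The counting intervals of so few events are wide, and most alternatives keep a part of the same events, so staying inside was a weak check. Keeping the 5 genes lowered the higher share from 68.8% to 61.9% under caloric restriction and from 72.7% to 61.5% under fasting. Taking 1 event per gene could change nothing, since the 38 events lie in 38 genes. At a minimum probability of 0.95, 14 of 38 events remained and 8 of the 10 summaries stayed within the interval. The exercise comparison kept 2 events there, of which 100% had a higher level, with a median absolute difference of 0.495. If positions were counted as end minus start, 0% of the stretches would have 3 nucleotides and 10.5% a length divisible by 3. The lengths of the Neb exons were used to choose between these counts. Depth per event is unknown, so how far it limits a level was not tested.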

Other observations

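Adjoining stretches were few in the whole table. In 4 cases a listed stretch directly adjoined another of the same comparison and strand, and all 4 pairs had the same direction. Besides Cenpt and N4bp2l1 these were Lrif1 and Eda, chosen after their values were seen. In Eda, encoding ectodysplasin A, a skipped exon had levels of 0.314 ad libitum and 0.0912 under fasting, and the 5' splice site stretch beside it had 0.350 and 0.0918. In Lrif1, a nuclear receptor-interacting protein, the levels were less alike: a skipped exon of 27 nucleotides had 0.875 ad libitum and 0.582 under caloric restriction, and the retained intron that follows it had 0.897 and 0.382. The gap between both treated levels was 0.2003 in Lrif1, against at most 0.0214 in the other 3 pairs.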
